A study of Mus musculus with 20 samples.

Results

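RNA of intraperitoneal mouse ovarian tumours was compared between animals that received olaparib together with checkpoint antibodies and animals that received olaparib alone. The comparison takes 6 of the 20 tumours of the study, 3 in each group, as the sample titles and the count columns name them, and covers the 18144 of 55406 genes that passed a filter on low counts. The PARPi-ICB tumours came from mice given olaparib by mouth at 40 mg/kg a day with 100 µg of an antibody against CTLA-4 and 200 µg of an antibody against PD-L1, both injected into the peritoneum at 2 injections a week. The PARPi tumours came from mice on the same oral dose of olaparib with no antibody. A further 14 tumours enter as context, namely ICB (the antibodies without olaparib, n = 3), untreated (n = 3), PARPi-ICB-aVEGF (olaparib, both antibodies and 20 µg of an antibody against VEGFA, n = 4) and PARPi-aVEGF (olaparib with the VEGFA antibody, n = 4). All 20 tumours grew in C57/BL6 female mice from ID8 cells, a line derived from mouse ovarian surface epithelium, in a luciferase-expressing derivative that carries the genotype Trp53-/-Brca1-/-, so tumours of both groups lack both genes in the cancer cells, and every tumour goes back to the same cell line. The labels name no change in the genes of the host. The comparison asks what blockade of 2 immune checkpoints adds to the RNA of a tumour that is already under a PARP inhibitor.

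PARP enzymes bind broken DNA and mark it for repair. Olaparib holds PARP1 and PARP2 on the DNA, and cells without BRCA1 cannot mend the resulting breaks by homologous recombination. CTLA-4 on T cells and PD-L1 on tumour and myeloid cells each restrain T cells, and the antibodies block that restraint. Peritoneal tumours also hold large numbers of macrophages and lymphocytes, and the peritoneal cavity has its own resident macrophages and B-1 cells.

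The libraries held 31220078 to 34663888 counts in the PARPi-ICB tumours and 31040040 to 34613984 counts in the PARPi tumours. Levels are given as CPM, gene counts brought to one common library size after scaling, in the order of replicates 1 to 3, and changes as log2 differences of PARPi-ICB minus PARPi with the standard error of the edgeR fit. A gene is called when the p-value of edgeR's quasi-likelihood test, adjusted over all genes tested by the Benjamini-Hochberg method, is under 0.05. The sample titles name each replicate as a mouse, and no label gives a cage, day or extraction batch. The p-values measure changes against a spread between tumours of a group. That spread was estimated over all 20 libraries of the 6 groups, not over the 6 compared tumours alone. Keratin 19 (Krt19), a keratin of simple epithelia, was abundant in all libraries, at 258, 275 and 244 CPM in the PARPi-ICB tumours and 325, 317 and 311 CPM in the PARPi tumours. Trp53 transcripts were counted at 57.5, 57.7 and 60.2 CPM in the PARPi-ICB tumours and 61.3, 50.6 and 59.2 CPM in the PARPi tumours, and Brca1 transcripts at 21.8, 17.4 and 13.2 CPM in the PARPi-ICB tumours and 18.8, 19.7 and 22 CPM in the PARPi tumours. Gene totals cannot show which part of these genes the cancer cells lack, and the tissue also holds host cells, so these levels do not test the genotype. In bulk tissue, more cells of a type and more RNA per cell cannot be told apart.

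Checkpoint antibodies on top of olaparib went with a change in 229 genes, which is 1.26% of those tested. Of these, 160 were higher (0.882%) and 69 lower (0.38%), and 84 differed at least 2-fold, 75 higher and 9 lower. The median log2 change of all genes tested was -0.01. At an unadjusted p under 0.05, 1638 genes were higher (9.03%) and 1324 lower (7.3%). The Wald test of DESeq2, an alternative whose counts are given for lists below, called 812 of the 18144 genes tested. Of these, 541 were higher and 271 lower, so its list counts stand against a larger share than those of edgeR. The libraries of the groups did not overlap for 228 of the 229 called genes, against 24.4% of all genes tested. Chil3, a product of alternatively activated macrophages, had a log2 change of 9.96 ± 1.19, and Ighm, the immunoglobulin µ chain, was the most abundant gene called.

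**Figure D1:**
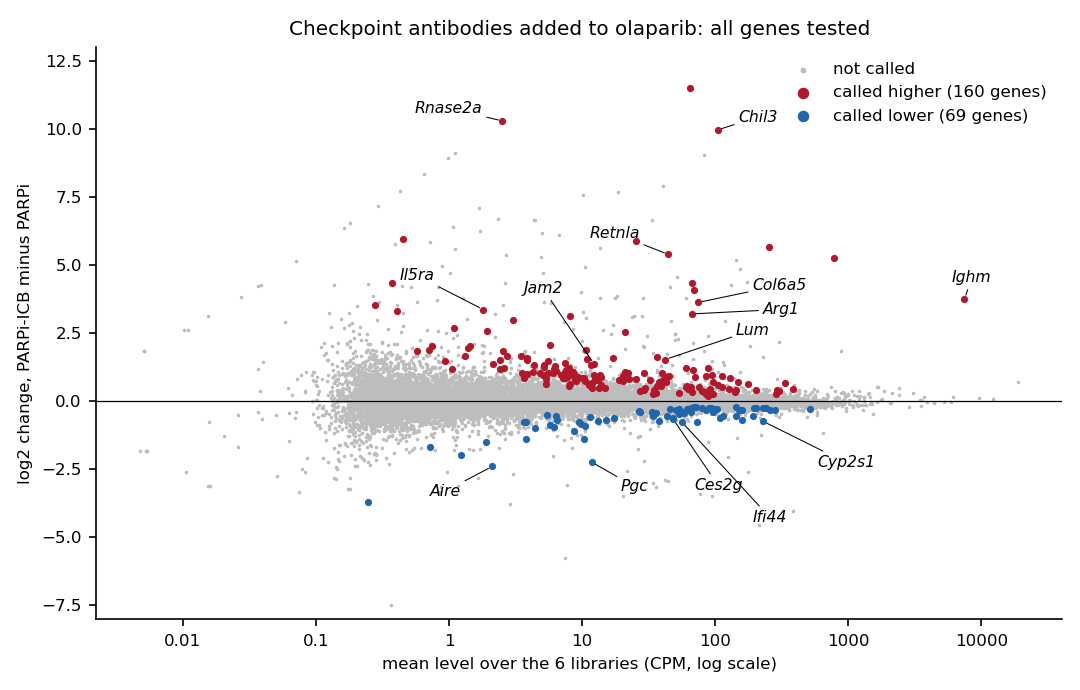
Each point is 1 of the genes tested, with its mean CPM over the 6 libraries on a log axis and its log2 change (PARPi-ICB minus PARPi) on the vertical axis. Red points are the 160 genes called higher and blue points the 69 called lower. Chil3 lies near 10 on the log2 scale, Ighm lies farthest to the right among the genes called, and 9 of the 69 blue points lie at or below -1.

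The number of called genes depended on single tumours. Without PARPi-ICB replicate 3 it was 30, and without PARPi replicate 1, 2 or 3 it was 62, 26 and 37. Without PARPi-ICB replicate 1 or 2 it was 251 and 293. PARPi-ICB replicate 3 was the highest of its group for 134 of the 160 higher genes and the lowest for 48 of the 69 lower genes. A total of 20 genes, 18 higher and 2 lower, kept their call whichever library was left out, and 11 kept it under all 17 alternative settings. Among them were Ighm, Chil3, Jam2, Nfasc, Kbtbd11, Serpina3n, Gdf6, Tmem26, Clmp and Bcl11b. All 229 kept their direction in each setting that measured them.

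**Figure D2:**
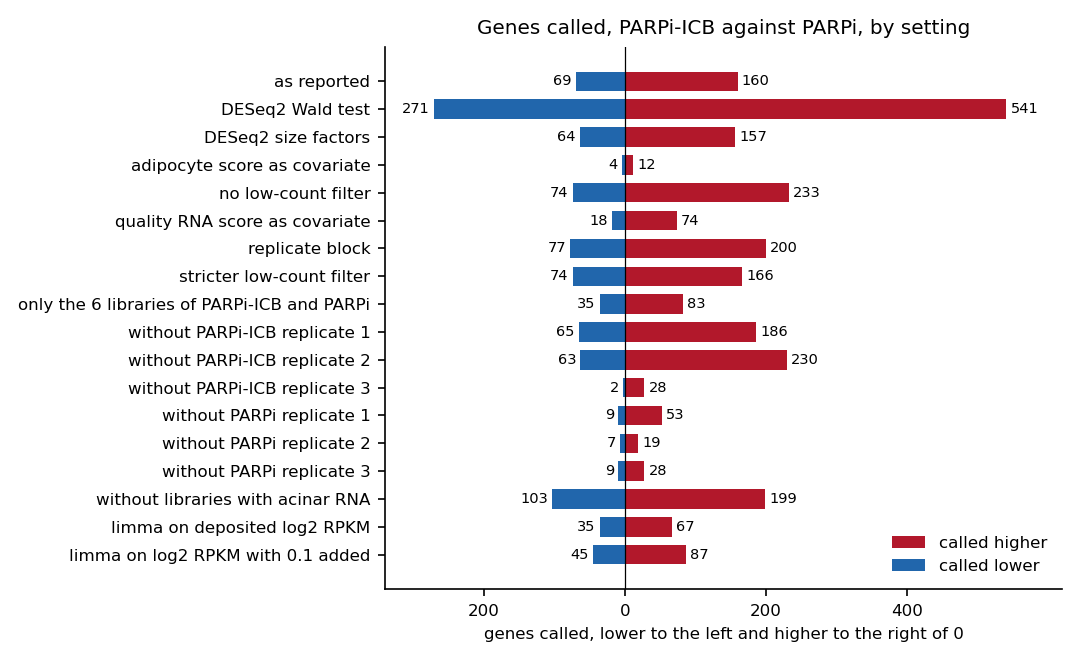
Bars show the number of genes called higher (red, to the right of 0) and lower (blue, to the left of 0) with PARPi-ICB against PARPi in the reported fit and in each alternative. The count was 812 with the Wald test of DESeq2 and 16 with the adipocyte score as a covariate.

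Secreted proteins and enzymes of alternatively activated macrophages were among the largest changes. Chil3, a chitinase-like protein that these cells secrete, stood at 78.5, 69.0 and 477 CPM in the PARPi-ICB tumours, against 0.230, 0.193 and 0.191 CPM in the PARPi tumours. Retnla, a resistin-like protein of the same macrophage state, stood at 38.6, 31.5 and 190.4 CPM in the PARPi-ICB tumours and 2.59, 1.73 and 1.88 CPM in the PARPi tumours. Arg1, the arginine-degrading enzyme arginase 1, had 44.3, 87.0 and 229.9 CPM in the PARPi-ICB tumours and 8.78, 11.3 and 19.1 CPM in the PARPi tumours. For all 3 genes each PARPi-ICB tumour lay above each PARPi tumour, and PARPi-ICB replicate 3 was the highest. The log2 changes were 9.96 ± 1.19 for Chil3 (ENSMUSG00000040809, chromosome 3, 106147554 to 106167564, GRCm38), 5.39 ± 0.94 for Retnla (ENSMUSG00000061100, chromosome 16, 48842551 to 48844461) and 3.20 ± 0.68 for Arg1, with edgeR adjusted p of 0.00106, 0.0112 and 0.0272. Without PARPi-ICB replicate 3 the changes were 8.46, 4.08 and 2.33, and the edgeR adjusted p became 0.00166 for Chil3, 0.0610 for Retnla and 0.197 for Arg1. The calls of Retnla and Arg1 were also lost without any single PARPi tumour, with edgeR adjusted p of 0.0523, 0.0798 and 0.0732 for Retnla and 0.108, 0.131 and 0.0884 for Arg1. Chil3 has a near-identical neighbour, Chil4, and reads of the 2 genes may be split between them. Chil4, looked at after the values of Chil3 were seen, had 32, 31 and 61 counts in the PARPi-ICB tumours and 0 counts in each PARPi tumour.

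The list of alternative activation and resident peritoneal macrophage genes had 15 members tested, of which 3 were called higher (Chil3, Retnla and Arg1) and none lower, and 6 were higher at an unadjusted p under 0.05. Its median log2 change was 1.00, or 0.49 without PARPi-ICB replicate 3, when Chil3 was the 1 still called, and 1.75 without PARPi replicate 3. F10, coagulation factor X, which peritoneal macrophages make, had a log2 change of 2.22 ± 0.65 (edgeR adjusted p 0.101) and did not pass. Gata6, the transcription factor of resident peritoneal macrophages that ID8 cells may also express, was at a log2 change of -0.05 (edgeR adjusted p 0.815). F7, coagulation factor VII, was called higher at 3.20, 3.31 and 9.72 CPM in the PARPi-ICB tumours, against 0.748, 0.385 and 0.922 CPM in the PARPi tumours. The groups did not overlap for F7, its change was 2.97 ± 0.65 (edgeR adjusted p 0.0314), and its adjusted p was 0.222 without PARPi-ICB replicate 3 and 0.0964, 0.158 and 0.108 without PARPi replicates 1 to 3.

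Il5ra, from the list of eosinophil and mast cell genes, was called higher, as were Rnase2a, Mcpt1 and Mcpt2, which are outside that list. Which cells carried these transcripts was not tested. Rnase2a, a ribonuclease of the eosinophil-associated family, had 68, 48 and 352 counts in the PARPi-ICB tumours and 0 counts in all 3 PARPi tumours. Set against a floor of 3 counts over the whole PARPi group, it was at least 156-fold higher in the PARPi-ICB tumours (edgeR adjusted p 0.00600), and at least 56-fold higher without PARPi-ICB replicate 3. Members of this family are alike in sequence, so counts may be shared among them. Il5ra, the receptor chain through which interleukin 5 acts on eosinophils, stood at 1.83, 4.14 and 3.94 CPM in the PARPi-ICB tumours and 0.403, 0.161 and 0.381 CPM in the PARPi tumours. No PARPi tumour reached the lowest PARPi-ICB tumour for Il5ra, whose log2 change was 3.36 ± 0.58 (edgeR adjusted p 0.0103). Mcpt1, a protease of mucosal mast cells, had 5.29, 22.2 and 16.3 CPM in the PARPi-ICB tumours and 1.96, 2.02 and 1.08 CPM in the PARPi tumours, a change of 3.11 ± 0.52 (edgeR adjusted p 0.00885). Its close relative Mcpt2, named after its values were seen, changed by 1.54 ± 0.33 (edgeR adjusted p 0.0272), and the 2 genes may share reads. The edgeR adjusted p of Il5ra was 0.0524, 0.0767 and 0.0558 without PARPi-ICB replicate 3, PARPi replicate 2 and PARPi replicate 3, and that of Mcpt1 was 0.0504 and 0.0610 without PARPi replicates 2 and 3. The call of Mcpt2 was lost without PARPi-ICB replicate 2 or 3 or any PARPi replicate, with edgeR adjusted p up to 0.155.

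Of 13 eosinophil and mast cell genes tested, 1 was called, Il5ra, and 6 were higher and 1 lower at an unadjusted p under 0.05, with a median log2 change of 1.05. The mast cell tryptase Tpsb2 had a log2 change of 1.16 ± 0.31 and carboxypeptidase A3 (Cpa3) of 1.09 ± 0.31, with edgeR adjusted p of 0.0781 and 0.0975. Kit, the stem cell factor receptor of mast cells and other cells, had a log2 change of -0.62 (edgeR adjusted p 0.0571). Epx, the eosinophil peroxidase, had 0 counts in all 6 tumours, and Prg2, an eosinophil granule protein, had a log2 change of -0.17 (edgeR adjusted p 0.846).

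Ccl8, a chemokine that attracts monocytes and, in mice, T helper cells of allergic inflammation, stood at 27.8, 27.3 and 52.1 CPM in the PARPi-ICB tumours and 6.88, 6.30 and 5.05 CPM in the PARPi tumours. Il1rl1, the receptor for interleukin 33, had 6.80, 7.66 and 13.3 CPM in the PARPi-ICB tumours and 2.16, 1.57 and 2.96 CPM in the PARPi tumours. Both were higher in every PARPi-ICB tumour than in any PARPi tumour, and both kept their call whichever library was left out, with log2 changes of 2.55 ± 0.39 and 2.05 ± 0.31 and edgeR adjusted p of 0.00394 and 0.00394. A further pair of genes, chosen after their values were seen, was interleukin 33 itself (Il33) and the interleukin 13 receptor chain Il13ra2. Il33 was at 53.2, 53 and 52.5 CPM in the PARPi-ICB tumours and 34.4, 29.2 and 34.9 CPM in the PARPi tumours, with a log2 change of 0.69 ± 0.16 (edgeR adjusted p 0.0431). Il13ra2 changed by 1.32 ± 0.28 (edgeR adjusted p 0.0270). The call of Il33 was lost without any 1 of the 6 libraries (edgeR adjusted p 0.0668 to 0.181), and that of Il13ra2 without PARPi-ICB replicate 3 or any PARPi replicate (up to 0.194). Among the 17 tested genes of the chemokine and chemokine receptor list, Ccl8 was the 1 called. In that list 6 were higher at an unadjusted p under 0.05, with a median of 0.36. Outside the list, the chemokine Ccl12 and the chemokine receptor Cxcr4, named after their values were seen, were also called higher. Their log2 changes were 0.49 ± 0.11 and 0.82 ± 0.18 (edgeR adjusted p 0.0302 and 0.0318). On leaving out 1 of the 6 libraries, Ccl12 stayed called in 1 fit and Cxcr4 in 2. Ccr1, a chemokine receptor of myeloid cells, had a log2 change of 0.51 ± 0.15 (edgeR adjusted p 0.0958).

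**Figure D3:**
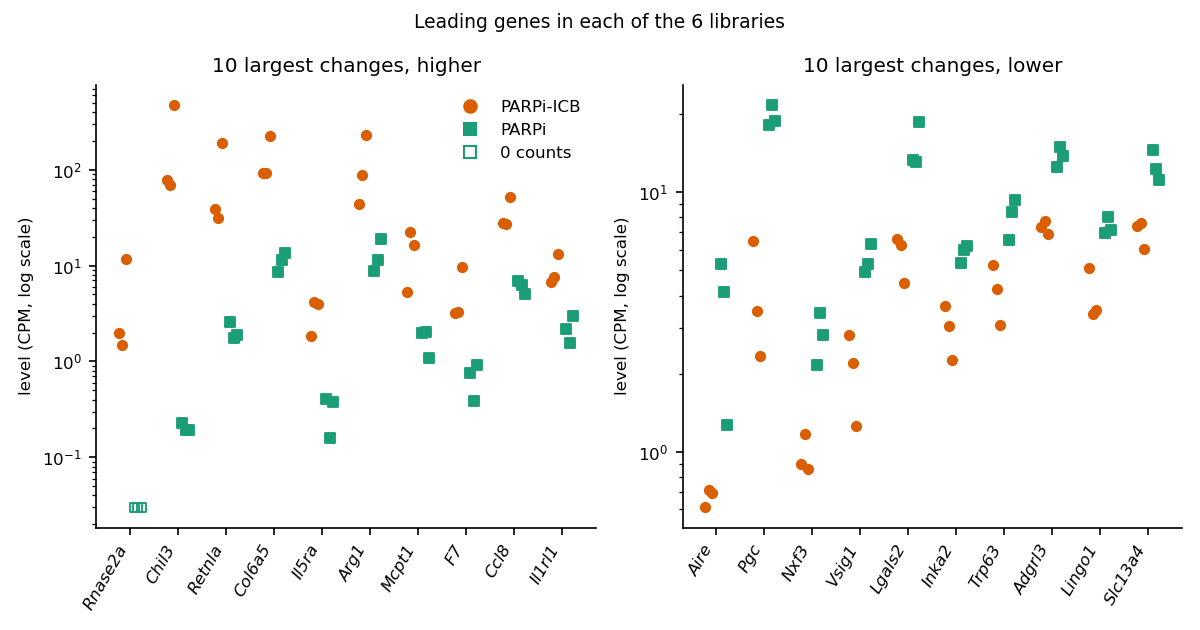
Each point is 1 library, with PARPi-ICB in orange to the left of PARPi in green, and CPM on a log axis; open squares at the bottom stand for 0 counts. The 10 called genes with the largest change in each direction are shown, and for all 20 the PARPi-ICB and PARPi libraries do not overlap.

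STAT6, the transcription factor downstream of interleukins 4 and 13, is known to bind a palindromic sequence, which was looked for in promoters. Sequences of 250 bases before the start were taken from RefSeq (GRCm38.p6), and the letters TTCNNNNGAA were searched on both strands; the motif reads the same on both. It occurred in 1923 of 32851 promoters (5.85%). Counted per gene, it occurred in 722 of the 12482 genes tested that had a promoter (5.78%). Of the 160 genes called higher 102 had a promoter, and 9 of these held it (8.82%). Of the 69 called lower 50 had a promoter, and 1 held it (2%). In the type I interferon list 4 of 18 genes with a promoter held it (22.2%), and in the list of alternative activation 2 of 6 (33.3%). Retnla and Tmem26 are shown because the rule for named genes includes them, with the match in capitals and read on the strand of the gene.
Retnla, chr16:48842452-48842485, plus strand: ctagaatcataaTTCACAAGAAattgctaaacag
Tmem26, chr10:68723507-68723540, plus strand: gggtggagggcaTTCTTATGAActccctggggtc
The match in Retnla starts 145 bases and that in Tmem26 227 bases before the start. Il33, which was named after its values were seen, also held a match, 36 bases before the start, that is not shown. No match was found in the window of Chil3. These are matches of letters, and no binding was measured.

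The immunoglobulin µ heavy chain, the constant region of IgM, was the most abundant of the genes called. Ighm (ENSMUSG00000076617, chromosome 12, 113418558 to 113422730) stood at 9200.4, 13202 and 19234 CPM in the PARPi-ICB tumours, against 955, 1315 and 836 CPM in the PARPi tumours. The lowest PARPi-ICB tumour was far above the highest PARPi tumour, the change was 3.74 ± 0.44 (edgeR adjusted p 0.00106), and the call held without any 1 library, with changes of 3.44 to 3.97. The kappa light chain Igkc had 24349, 16128 and 29866 CPM in the PARPi-ICB tumours and 16828, 14686 and 11273 CPM in the PARPi tumours, and its change of 0.72 ± 0.35 did not pass (edgeR adjusted p 0.315). Ighg1, the constant region of IgG1, had a log2 change of 1.83 ± 0.91 and the lambda constant region Iglc3 of 1.56 ± 0.49, with edgeR adjusted p of 0.331 and 0.121. Of 12 constant region genes, Ighm was the 1 called.

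Summed over all 268 immunoglobulin genes, the tumours held 5.97, 4.42 and 7.21% of their counts with PARPi-ICB and 3.97, 3.37 and 2.53% with PARPi. The groups did not overlap, and the mean log2 sum was higher by 0.86 with PARPi-ICB (exact two-sided permutation test, p = 0.1, the smallest that 3 against 3 allows). Kappa variable segments summed to 5763, 6238 and 7192 CPM in the PARPi-ICB tumours and 4649.7, 2752 and 2792 CPM in the PARPi tumours, a log2 difference of 0.95 (exact permutation p = 0.1). Heavy chain variable segments differed by 0.49 on the log2 scale, with overlap between the groups (exact permutation p = 0.3), and by 0.27 without PARPi replicate 3 to 0.72 without PARPi-ICB replicate 2. Segments with at least 10 counts numbered 185, 171 and 188 in the PARPi-ICB tumours and 135, 129 and 144 in the PARPi tumours. T cell receptor segments summed to 63.7, 51.7 and 88.7 CPM in the PARPi-ICB tumours and 49.4, 39.8 and 46.0 CPM in the PARPi tumours, a log2 difference of 0.56 (exact permutation p = 0.1), or 0.35 without PARPi-ICB replicate 3 and 0.74 without PARPi-ICB replicate 2.

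Most genes of B cells and plasma cells did not pass. Of 14 B cell genes, 0 were called, with 3 higher and 1 lower at an unadjusted p under 0.05 and a median log2 change of 0.40, or 0.20 without PARPi-ICB replicate 3 and 0.60 without PARPi-ICB replicate 2. DESeq2 called 1, which was lower, beside 812 of all 18144 genes tested. Cd79b, a chain of the B cell receptor, had a log2 change of 0.69 ± 0.32, and Cr2, the complement receptor of follicular B cells, of -1.76 ± 0.57 (edgeR adjusted p 0.288 and 0.130). Of 12 plasma cell genes all 12 had positive changes (median 0.63) and 1 was called, Fkbp11, a chaperone of the secretory pathway. Fkbp11 stood at 17.9, 15.3 and 18.6 CPM in the PARPi-ICB tumours and 13.9, 13.2 and 10.2 CPM in the PARPi tumours (log2 change 0.47 ± 0.11, edgeR adjusted p 0.0416), and its call was lost without PARPi-ICB replicate 1 or 3 or any PARPi replicate (edgeR adjusted p up to 0.247). The plasma cell transcription factors Prdm1 and Irf4 had log2 changes of 0.66 ± 0.18 and 0.91 ± 0.30 (edgeR adjusted p 0.0763 and 0.130).

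Of 19 genes of the T cell receptor complex and its signalling, 4 were called higher and 0 lower, 17 were higher at an unadjusted p under 0.05, and the median log2 change was 0.76. Lat, an adaptor of receptor signalling, had 9.80, 9.39 and 15.4 CPM in the PARPi-ICB tumours and 5.99, 5.56 and 5.09 CPM in the PARPi tumours. Cd6, a T cell costimulatory receptor, had 11.6, 8.99 and 12.9 CPM in the PARPi-ICB tumours and 6.39, 4.98 and 4.90 CPM in the PARPi tumours. Every PARPi-ICB tumour was above every PARPi tumour for both, with log2 changes of 1.05 ± 0.20 and 1.04 ± 0.21 and edgeR adjusted p of 0.0160 and 0.0219. The adhesion receptor Cd2 changed by 0.97 ± 0.23 (edgeR adjusted p 0.0478). None of the 19 was called without PARPi-ICB replicate 3, when the median was 0.59, and the edgeR adjusted p of Lat, Cd6 and Cd2 was 0.112, 0.149 and 0.315. Without PARPi replicate 2 or 3 none was called either, without PARPi replicate 1 there were 2 calls (Lat and Cd6), without PARPi-ICB replicate 1 there were 3, and without PARPi-ICB replicate 2 there were 7. Bcl11b, a transcription factor of the T cell lineage that was named after its values were seen, stood at 6.46, 6.83 and 8.73 CPM in the PARPi-ICB tumours and 3.22, 2.70 and 3.24 CPM in the PARPi tumours. Its change was 1.26 ± 0.19 (edgeR adjusted p 0.00379), and it kept its call in all 17 alternatives. The kinase Prkcq, chosen in the same way, changed by 1.5 ± 0.25 (edgeR adjusted p 0.00933), with 0.0646 and 0.0737 without PARPi-ICB replicate 3 and PARPi replicate 2.

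Genes of killing and of the blocked checkpoints did not pass the test. All 15 of 15 CD8 and cytotoxic genes had positive changes with a median of 0.87, and 8 were higher at an unadjusted p under 0.05, but 0 were called by edgeR. DESeq2 called 6 of them, beside 812 of all 18144 genes tested. Nkg7, a granule protein of cytotoxic cells, was at 6.83, 4.51 and 9.96 CPM in the PARPi-ICB tumours and 3.63, 2.60 and 2.86 CPM in the PARPi tumours (log2 change 1.22 ± 0.30, edgeR adjusted p 0.0540). Cd8b1 had a log2 change of 0.87 ± 0.25, Eomes of 0.99 ± 0.26 and granzyme K (Gzmk) of 1.48 ± 0.43, with edgeR adjusted p of 0.0905, 0.0695 and 0.0926. Of 10 natural killer genes 0 were called and 1 was higher at an unadjusted p under 0.05, Il2rb, with a change of 0.55 ± 0.18 (edgeR adjusted p 0.137).

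The antibody targets themselves were measured in every tumour. Ctla4 stood at 8.37, 5.62 and 10.7 CPM in the PARPi-ICB tumours and 4.03, 4.56 and 3.81 CPM in the PARPi tumours, a change of 0.99 ± 0.32 (edgeR adjusted p 0.125). Cd274, which encodes PD-L1, was at 55.4, 48.8 and 56.6 CPM in the PARPi-ICB tumours and 44.2, 44.0 and 42.9 CPM in the PARPi tumours, a change of 0.30 ± 0.19 (edgeR adjusted p 0.472). For both genes the groups did not overlap, as for 24.4% of all genes, and neither was called. Pdcd1, the receptor of PD-L1, overlapped between the groups, with a change of 0.43 ± 0.25 (edgeR adjusted p 0.420). Foxp3, which defines regulatory T cells, had a log2 change of 0.55 ± 0.22 (edgeR adjusted p 0.227), and 0 of 10 regulatory T cell genes and 0 of 16 checkpoint genes were called, with 5 and 3 higher at an unadjusted p under 0.05. DESeq2 called 2 members of each of these lists, beside 812 of all 18144 genes tested. Pdcd1lg2, which encodes the second PD-1 ligand, had a log2 change of 1.26 ± 0.36 (edgeR adjusted p 0.0885).

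**Figure D4:**
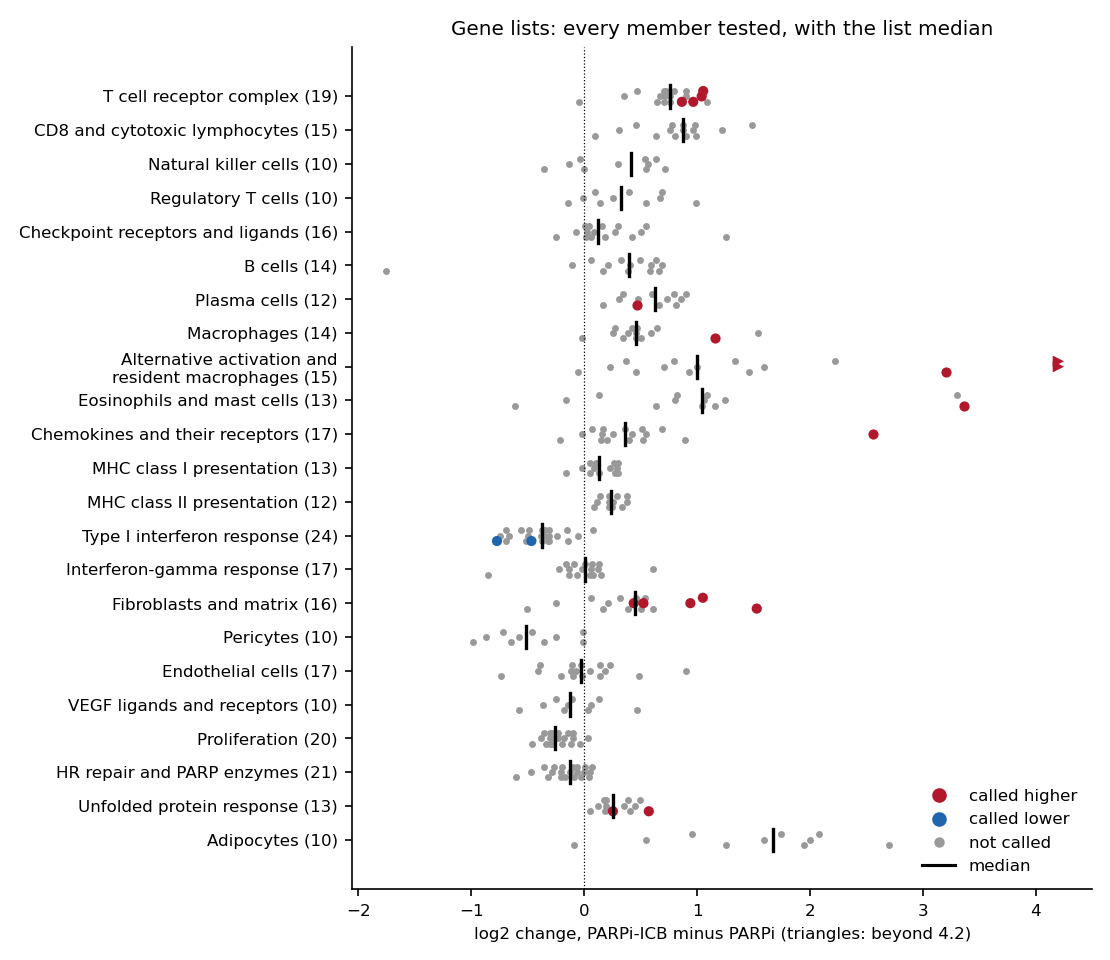
Each point is a tested member of a gene list with its log2 change (PARPi-ICB minus PARPi); the number tested stands in parentheses and the black bar is the list median. Red points were called higher and blue points called lower, and triangles stand for values beyond the axis. T cell, macrophage and matrix lists lie mostly to the right of 0, and type I interferon, pericyte and proliferation lists mostly to the left.

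Mrc1, the mannose receptor of alternatively activated macrophages, stood at 67.5, 82.4 and 132 CPM in the PARPi-ICB tumours and 43.0, 38.2 and 45 CPM in the PARPi tumours, a change of 1.16 ± 0.20 (edgeR adjusted p 0.00999). For this macrophage gene all PARPi-ICB tumours were above all PARPi tumours. It was the 1 gene called of 14 in the list, where 11 were higher at an unadjusted p under 0.05 and the median was 0.46, or 0.22 without PARPi-ICB replicate 3. The edgeR adjusted p of Mrc1 was 0.0564 without that tumour and 0.0755 without PARPi replicate 2. The complement component C1qa had a log2 change of 0.43 ± 0.11 and the lipid receptor Trem2 of 0.64 ± 0.16 (edgeR adjusted p 0.0540 and 0.0565). C5ar1, the receptor for complement fragment C5a, was called at 11.7, 12.1 and 15.9 CPM in the PARPi-ICB tumours and 7.34, 6.97 and 9.25 CPM in the PARPi tumours (log2 change 0.75 ± 0.17, edgeR adjusted p 0.0319), and it was the 1 called of 12 complement genes, with 8 higher at an unadjusted p under 0.05. Its edgeR adjusted p was 0.230 without PARPi-ICB replicate 3 and 0.111, 0.161 and 0.0577 without PARPi replicates 1 to 3. C4b had a log2 change of 1.07 ± 0.29 (edgeR adjusted p 0.0745), with reads that may be shared with its copy C4a. Complement component C6, outside the list of 12 and named after its values were seen, was also called higher. Its log2 change was 1.85 ± 0.39 (edgeR adjusted p 0.0270), and it stayed called in 2 of the fits that left out 1 library.

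Of 13 monocyte and neutrophil genes and 13 dendritic cell genes 0 were called by edgeR. At an unadjusted p under 0.05, 3 monocyte and neutrophil genes were higher and 0 lower, and 1 dendritic cell gene was higher and 1 lower. The median log2 change of the monocyte and neutrophil genes was 0.70, or 0.20 without PARPi-ICB replicate 3, with 11 positive and 2 negative. The median of the dendritic cell genes was -0.01. DESeq2 called 2 of the monocyte and neutrophil genes and 1 dendritic cell gene, the last of them lower. Csf3r, the receptor of neutrophils for the growth factor G-CSF, had a log2 change of 0.51 ± 0.13 (edgeR adjusted p 0.0536). Genes of antigen presentation were not called. The class I gene H2-K1 had a log2 change of 0.27 ± 0.13 and the class II gene H2-Ab1 of 0.33 ± 0.13 (edgeR adjusted p 0.315 and 0.204). None of 13 class I or 12 class II genes was called, with 2 and 3 higher at an unadjusted p under 0.05 and 1 and 1 called by DESeq2.

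Of 24 genes of the type I interferon response 2 were called lower and 0 higher, 23 had negative changes, 15 were lower at an unadjusted p under 0.05, and the median log2 change was -0.38. Ifih1, the cytosolic RNA sensor MDA5, stood at 47.1, 45.8 and 41.7 CPM in the PARPi-ICB tumours and 59.2, 62.4 and 64.6 CPM in the PARPi tumours. Ifi44, an interferon-induced protein, stood at 47.8, 47.5 and 29.4 CPM in the PARPi-ICB tumours and 71.6, 69.6 and 72.0 CPM in the PARPi tumours. Each PARPi-ICB tumour was below each PARPi tumour for both, with log2 changes of -0.47 ± 0.10 and -0.77 ± 0.19 and edgeR adjusted p of 0.0270 and 0.0482. Without PARPi-ICB replicate 3, which was the lowest for both, none of the list was called, its median was -0.23, and the edgeR adjusted p of Ifih1 and Ifi44 was 0.186 and 0.265. Both calls were also lost without any 1 PARPi tumour, with edgeR adjusted p of 0.0648, 0.0988 and 0.118 for Ifih1 and 0.114, 0.131 and 0.144 for Ifi44. Irf9, a subunit of the transcription factor that type I interferon activates, had a log2 change of -0.24 ± 0.06 (edgeR adjusted p 0.0751).

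Of 17 interferon-gamma targets 0 were called, 1 was higher and 0 lower at an unadjusted p under 0.05, DESeq2 called 0, and the median was 0.01 (-0.04 to 0.11 on leaving out 1 library). Cxcl10, a chemokine induced by both interferon types, was at 66.2, 54.3 and 55.5 CPM in the PARPi-ICB tumours and 72.0, 69.4 and 64.1 CPM in the PARPi tumours (log2 change -0.22 ± 0.19, edgeR adjusted p 0.613). Of the cytosolic DNA sensing genes 0 of 10 were called by edgeR and 1 by DESeq2, with 1 higher and 2 lower at an unadjusted p under 0.05. The DNA sensor Cgas had a log2 change of -0.33 ± 0.12 and its partner STING, here Tmem173, of 0.21 ± 0.11 (edgeR adjusted p 0.161 and 0.350).

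The interferon-activated complex is known to bind an element of repeated GAAA letters. The letters GAAANNGAAA were searched on both strands of the same 250 bases, and they occurred in 978 of 32851 promoters (2.98%). Counted per gene, they occurred in 426 of the 12482 genes tested that had a promoter (3.41%). In the type I interferon list 7 of 18 genes with a promoter held them (38.9%), as did 6 of 50 genes called lower (12%) and 0 of 102 called higher. None of those 6 genes (Adgrl3, Gm33370, Mylk, Rnf182, Slc13a4 and Wt1os) is in the interferon list. For 3 of them (Adgrl3, Gm33370 and Mylk) the window overlaps the annotated span of the same gene. Ifit1, Ifit3, Isg15 and Oas1a, named for the match and not for their values, show the element in capitals on the strand of the gene.
Ifit1, chr19:34640773-34640825, plus strand: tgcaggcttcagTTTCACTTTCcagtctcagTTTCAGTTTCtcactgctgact
Ifit3, chr19:34583361-34583428, plus strand: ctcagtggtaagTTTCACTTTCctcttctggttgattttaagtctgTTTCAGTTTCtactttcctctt
Isg15, chr4:156200863-156200908, minus strand: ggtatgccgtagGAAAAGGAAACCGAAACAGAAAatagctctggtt
Oas1a, chr5:120907526-120907557, minus strand: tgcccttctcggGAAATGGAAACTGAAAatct
Neighbouring matches overlap in Isg15 and Oas1a, and Ifit1 and Ifit3 hold separate copies. The protein made from Ifit1 binds viral RNA, and its transcript stood at 43.0, 48.4 and 24.1 CPM in the PARPi-ICB tumours and 65.5, 60.3 and 61.1 CPM in the PARPi tumours. The groups did not overlap, as for 24.4% of all genes tested, and the change of -0.69 ± 0.20 was not called (edgeR adjusted p 0.102). Ifit3 had a log2 change of -0.67 ± 0.24, Isg15 of -0.52 ± 0.22 and Oas1a of -0.50 ± 0.17 (edgeR adjusted p 0.165, 0.243 and 0.141). The windows of Ifih1 and Ifi44, which were called, held no match, and no binding was measured.

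Adhesion and growth factor genes were among the calls that held under all settings. Jam2, a junctional adhesion molecule, stood at 15.9, 16.2 and 21.0 CPM in the PARPi-ICB tumours and 7.43, 6.94 and 6.29 CPM in the PARPi tumours. Nfasc, the adhesion molecule neurofascin, stood at 20.2, 24.5 and 31.9 CPM in the PARPi-ICB tumours and 10.2, 7.87 and 7.79 CPM in the PARPi tumours. The groups lay apart for both, with changes of 1.36 ± 0.17 and 1.57 ± 0.20 and edgeR adjusted p of 0.00106 and 0.00213. Gdf6, a growth factor of the BMP family, changed by 1.32 ± 0.18, the adhesion molecule Clmp by 0.94 ± 0.15, Kbtbd11 by 1.15 ± 0.15 and Tmem26 by 1.59 ± 0.22, with edgeR adjusted p of 0.00232, 0.00587, 0.00213 and 0.00236. Svep1, an extracellular adhesion protein, and Colec12, a scavenger receptor of stromal cells, changed by 1.06 ± 0.15 and 1.20 ± 0.18 (edgeR adjusted p 0.00236 and 0.00375) and kept their calls without any 1 library.

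Col6a5, a chain of collagen VI, had the largest change among the matrix genes named, with 92.2, 93.4 and 227 CPM in the PARPi-ICB tumours and 8.55, 11.4 and 13.5 CPM in the PARPi tumours (log2 change 3.62 ± 0.57, edgeR adjusted p 0.00537). Every PARPi-ICB tumour was above every PARPi tumour, with PARPi-ICB replicate 3 the highest, and the change without it was 3.06 (edgeR adjusted p 0.0304). Of 16 fibroblast and matrix genes 5 were called higher and 0 lower, 10 were higher and 1 lower at an unadjusted p under 0.05, and the median was 0.45. The called members were lumican (Lum), the collagen crosslinking enzymes Lox and Loxl1, the surface glycoprotein Thy1, which T cells also carry, and the secreted Wnt antagonist Sfrp1. Lum stood at 50.9, 62.2 and 74.4 CPM in the PARPi-ICB tumours and 28.3, 15.6 and 21.0 CPM in the PARPi tumours. Lox stood at 86.7, 116 and 133 CPM in the PARPi-ICB tumours and 59.5, 58.9 and 56.6 CPM in the PARPi tumours. Neither overlapped between the groups, with changes of 1.53 ± 0.26 and 0.94 ± 0.17 and edgeR adjusted p of 0.00999 and 0.0123. Sfrp1, Loxl1 and Thy1 changed by 1.05 ± 0.21, 0.52 ± 0.12 and 0.44 ± 0.08 (edgeR adjusted p 0.0201, 0.0328 and 0.0169). Collagen I genes did not pass, with Col1a1 at a log2 change of 0.39 ± 0.18 (edgeR adjusted p 0.303), and periostin (Postn) had a log2 change of -0.51 (edgeR adjusted p 0.0586). None of the 16 was called without PARPi-ICB replicate 3, with edgeR adjusted p of 0.0646 for Lum, 0.101 for Lox, 0.149 for Sfrp1, 0.230 for Loxl1 and 0.134 for Thy1. Without PARPi replicate 2 or 3 none was called, and without PARPi replicate 1 there were 2 calls, Lum and Lox.

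All 10 of 10 pericyte genes had negative changes and 6 were lower at an unadjusted p under 0.05, but 0 were called by edgeR and 1 by DESeq2, and the median was -0.52. Rgs5, a regulator of G protein signalling in mural cells, was at 90.3, 113 and 86.2 CPM in the PARPi-ICB tumours and 145, 149 and 161 CPM in the PARPi tumours. Notch3, a receptor of mural cells, was at 16.2, 18 and 12.9 CPM in the PARPi-ICB tumours and 28.0, 25.4 and 24.2 CPM in the PARPi tumours. The groups did not overlap for either, as for 24.4% of all genes tested, and neither was called. The changes were -0.65 ± 0.23 and -0.72 ± 0.19, and the edgeR adjusted p was 0.164 and 0.0633. Vegfa, the angiogenic factor that hypoxia induces, was at 315, 526 and 336 CPM in the PARPi-ICB tumours and 542, 643 and 575 CPM in the PARPi tumours (log2 change -0.58 ± 0.19, edgeR adjusted p 0.134). Flt4, a receptor of the VEGF family known for lymphatic growth, had a log2 change of -0.25 ± 0.08 (edgeR adjusted p 0.134). None of 10 VEGF genes, 17 endothelial genes or 13 hypoxia genes was called, with 3, 0 and 2 lower and 1, 1 and 0 higher at an unadjusted p under 0.05. The median log2 change was -0.13 for VEGF genes (-0.18 to -0.03 on leaving out 1 library, highest without PARPi-ICB replicate 3), -0.03 for endothelial genes (-0.11 to 0.01) and -0.14 for hypoxia genes (-0.32 to -0.10, lowest without PARPi-ICB replicate 2). DESeq2 called 1, 0 and 1 members of these lists.

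Ces2g, a carboxylesterase that hydrolyses lipid esters, stood at 42.6, 32.9 and 36.8 CPM in the PARPi-ICB tumours and 66.3, 55.7 and 55.6 CPM in the PARPi tumours, a change of -0.66 ± 0.10 (edgeR adjusted p 0.00375). Arhgap28, a GTPase-activating protein, stood at 29.5, 31.7 and 30.5 CPM in the PARPi-ICB tumours and 40.0, 44.1 and 39.3 CPM in the PARPi tumours, a change of -0.43 ± 0.07 (edgeR adjusted p 0.00514). Both lay apart between the groups, and they were the 2 lower genes that kept their call without any 1 library. The cytochrome P450 gene Cyp2s1 changed by -0.74 ± 0.13, the fatty acid desaturase Scd1 by -0.53 ± 0.10 and the collagen-binding integrin chain Itga1 by -0.53 ± 0.10, with edgeR adjusted p of 0.0123, 0.0174 and 0.0192. The kinase Cdk14, the phosphodiesterase-like Smpdl3b and the RNA-binding protein Rbpms changed by -0.41 ± 0.08, -0.44 ± 0.08 and -0.30 ± 0.06, with edgeR adjusted p of 0.0157, 0.0174 and 0.0174. Without PARPi-ICB replicate 3 the edgeR adjusted p of these 6 genes was between 0.105 (Cyp2s1) and 0.154 (Smpdl3b), and each was also not called without PARPi replicate 2. Scd1, Itga1, Smpdl3b and Rbpms were not called without PARPi replicate 1, and Cyp2s1, Cdk14, Scd1 and Itga1 not without PARPi replicate 3. Wt1os, which lies antisense to Wt1, changed by -0.39 ± 0.06 (edgeR adjusted p 0.00587, or 0.0610 without PARPi-ICB replicate 3). The strand setting of the counting is not given in the sources used here, so reads of Wt1os and Wt1 cannot be told apart.

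Aire and Pgc had the largest changes downward. Pgc, a gastric aspartic protease precursor, stood at 6.51, 3.49 and 2.35 CPM in the PARPi-ICB tumours and 18.1, 21.7 and 18.8 CPM in the PARPi tumours (log2 change -2.24 ± 0.45, edgeR adjusted p 0.0219). Aire, a transcriptional regulator known from the thymus, stood at 0.611, 0.711 and 0.695 CPM in the PARPi-ICB tumours and 5.27, 4.11 and 1.27 CPM in the PARPi tumours (log2 change -2.40 ± 0.41, edgeR adjusted p 0.00973). No PARPi-ICB tumour reached the lowest PARPi tumour for either, and PARPi replicate 3 was well below the other PARPi tumours for Aire. The other 8 of the 10 largest were Nxf3, Vsig1, Lgals2, Inka2, Trp63, Adgrl3, Lingo1 and Slc13a4, with log2 changes of -1.52 (Nxf3) to -0.85 (Slc13a4) and edgeR adjusted p of 0.0192 (Nxf3) to 0.0490 (Lingo1). Among them are Trp63, a p53 family factor of epithelia, at 5.26, 4.23 and 3.08 CPM in the PARPi-ICB tumours and 6.56, 8.38 and 9.35 CPM in the PARPi tumours, and Vsig1, an epithelial junction protein, at 2.82, 2.19 and 1.26 CPM in the PARPi-ICB tumours and 4.92, 5.27 and 6.33 CPM in the PARPi tumours. Without PARPi-ICB replicate 3 or PARPi replicate 2 none of the 10 was called, with edgeR adjusted p of 0.0646 (Aire) to 0.265 (Lingo1) without PARPi-ICB replicate 3. Aire was the 1 still called without PARPi replicate 3, Aire and Nxf3 without PARPi replicate 1, and Pgc had an edgeR adjusted p of 0.0525 without PARPi-ICB replicate 2.

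Of 15 epithelial and mesothelial genes, Pgc was the 1 called lower and 0 were called higher, and 2 were higher and 4 lower at an unadjusted p under 0.05. Epcam, an epithelial adhesion molecule, had a log2 change of 0.72 ± 0.25 and Krt19 of -0.30 ± 0.11 (edgeR adjusted p 0.150 and 0.200). The log2 change was negative in 19 of 20 proliferation genes (median -0.26), and 0 were called by edgeR and 1 by DESeq2, with 6 lower at an unadjusted p under 0.05. Mcm5, a subunit of the replicative helicase, stood at 73.5, 57.8 and 50.7 CPM in the PARPi-ICB tumours and 91.7, 75.6 and 83.3 CPM in the PARPi tumours (log2 change -0.46 ± 0.15, edgeR adjusted p 0.125). The drug targets Parp1 and Parp2 had log2 changes of -0.21 ± 0.08 and -0.03 ± 0.07 (edgeR adjusted p 0.183 and 0.860), and 0 of 21 genes of homologous recombination and PARP enzymes were called by edgeR and 1 by DESeq2, with 6 lower at an unadjusted p under 0.05. All 12 of 12 p53 target genes had positive changes with a median of 0.22, 0 were called by edgeR and 0 by DESeq2, and 5 were higher at an unadjusted p under 0.05. Cdkn1a, the cell cycle inhibitor p21, had a log2 change of 0.39 ± 0.15 (edgeR adjusted p 0.189).

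Serpina3n, an acute phase protease inhibitor, stood at 44.8, 58.3 and 63.3 CPM in the PARPi-ICB tumours and 23.5, 15.3 and 15.9 CPM in the PARPi tumours, a change of 1.61 ± 0.22 (edgeR adjusted p 0.00232). It was the 1 called of 8 acute phase genes, the groups did not overlap, and the call held under all settings. Saa3, an acute phase apolipoprotein of macrophages, had a log2 change of 2.27 ± 0.65 (edgeR adjusted p 0.0921). In the unfolded protein response all 13 of 13 genes had positive changes with a median of 0.25, and 2 were called, the chaperone Dnajb9 (0.57 ± 0.13, edgeR adjusted p 0.0315) and the transcription factor Atf4 (0.25 ± 0.06, edgeR adjusted p 0.0482). Leaving out PARPi-ICB replicate 1 or 3 or any PARPi replicate ended the call of Dnajb9 (edgeR adjusted p up to 0.186), and leaving out any 1 of the 6 ended that of Atf4 (0.0579 to 0.197).

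The mean log2 CPM of 12 immediate early and heat shock genes was 4.02, 6.14 and 4.13 in the PARPi-ICB tumours and 3.95, 4.06 and 4.15 in the PARPi tumours. Hspa1b, an inducible HSP70 gene, stood at 0.931, 53.6 and 0.959 CPM in the PARPi-ICB tumours and 0.864, 1.25 and 1.34 CPM in the PARPi tumours, and its near-identical copy Hspa1a at 0.785, 27.1 and 1.06 CPM in the PARPi-ICB tumours and 0.461, 0.771 and 1.08 CPM in the PARPi tumours. PARPi-ICB replicate 2 alone was high, 0 genes of the list were called by edgeR and 2 by DESeq2, and 9 were higher at an unadjusted p under 0.05. The edgeR adjusted p of Hspa1b was 0.0633, and 0.788 without PARPi-ICB replicate 2.

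Markers of fat tissue differed in mean level between the groups. The mean log2 CPM of 10 adipocyte genes was 2.16, 1.78 and 1.96 in the PARPi-ICB tumours and 1.23, 0.01 and 0.41 in the PARPi tumours, with no overlap, while the summed level ran from 695 to 736 CPM in the PARPi-ICB tumours and from 697 to 754 CPM in the PARPi tumours. Adipoq, which encodes adiponectin, stood at 2.50, 1.42 and 1.69 CPM in the PARPi-ICB tumours and 0.777, 0.385 and 0.223 CPM in the PARPi tumours, and resistin (Retn) had 0 counts in PARPi replicate 2. None of the adipocyte genes was called by edgeR or DESeq2 and 5 were higher at an unadjusted p under 0.05. With the adipocyte score as a covariate, a fit chosen after the data were seen, 16 genes were called, 12 higher and 4 lower, among them Ighm, Chil3, Jam2, Nfasc, Serpina3n, Gdf6 and Ces2g, and no member of the lists of T cell, macrophage marker or matrix genes other than Chil3, which is in the list of alternative activation. The score did not overlap between the groups, so the part of fat tissue in the other calls and the part of the antibodies cannot be told apart. In that fit Mrc1 had a log2 change of 1.05 (edgeR adjusted p 0.0868), Lum of 1.40 (0.0802) and Lat of 1.14 (0.0643). Skeletal muscle genes averaged 0.49, 0.52 and 0.30 log2 CPM in the PARPi-ICB tumours and 2.52, 0.45 and 0.29 in the PARPi tumours, PARPi replicate 1 being the highest, with 0 of 7 called by edgeR, 2 by DESeq2 and 5 lower at an unadjusted p under 0.05. The part of muscle in the results was not tested. Acinar genes of the pancreas stayed between -2.67 and -2.22 log2 CPM in these 6 tumours. Of acinar, red blood cell, liver, gut and ovary, TGF-beta pathway, mitochondrial and small structural RNA genes 0 were called by edgeR. At an unadjusted p under 0.05 the counts in the same order were 0, 0, 1, 0, 2, 0 and 1 higher, with 1 lower in the TGF-beta list and none in the others, and DESeq2 called 4, 0, 0, 0, 2, 0 and 1.

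The same antibodies were also compared without olaparib and on top of olaparib with the VEGFA antibody, to ask whether the effect differs with the accompanying drugs. None of these comparisons shares a library with the one above. The difference of the effect with olaparib (PARPi-ICB minus PARPi) from the effect without it (ICB minus untreated) was called for 0 genes (0%). Of the 18144 genes tested, 946 had an unadjusted p under 0.05, the smallest edgeR adjusted p was 0.869, and DESeq2 called 11. The difference from the effect on top of olaparib and anti-VEGFA (PARPi-ICB-aVEGF minus PARPi-aVEGF) was called for 0 genes (0%). Of the 18144 genes tested, 1188 had an unadjusted p under 0.05, the smallest edgeR adjusted p was 0.456, and DESeq2 called 17.

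Chil3 averaged 208 ± 233 CPM with PARPi-ICB and 0.205 ± 0.0223 CPM with PARPi, 18.8 ± 24.5 CPM with ICB and 0.242 ± 0.144 CPM in untreated tumours, and 117 ± 32.9 CPM with PARPi-ICB-aVEGF and 1.09 ± 0.475 CPM with PARPi-aVEGF (SD, n = 3 or 4). The log2 effect of the antibodies on Chil3 was 9.96 ± 1.19 with olaparib, 6.27 ± 1.12 without it and 6.77 ± 0.86 with olaparib and anti-VEGFA. Ighm showed effects of 3.74 ± 0.44, 2.47 ± 0.41 and 2.35 ± 0.36 in the same order. Both genes were called in all 3 comparisons, with edgeR adjusted p of 0.0124 and 0.00555 for Chil3 and 0.00958 and 0.0180 for Ighm in the other 2. Jam2 was called with olaparib and in neither of the other comparisons, its effects being 1.36 ± 0.17, 0.37 ± 0.16 and 0.44 ± 0.14. The tests of these differences in Jam2 had an unadjusted p of 0.000474 and 0.000474 and did not pass after adjustment (edgeR adjusted p 0.935 and 0.595).

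**Figure D5:**
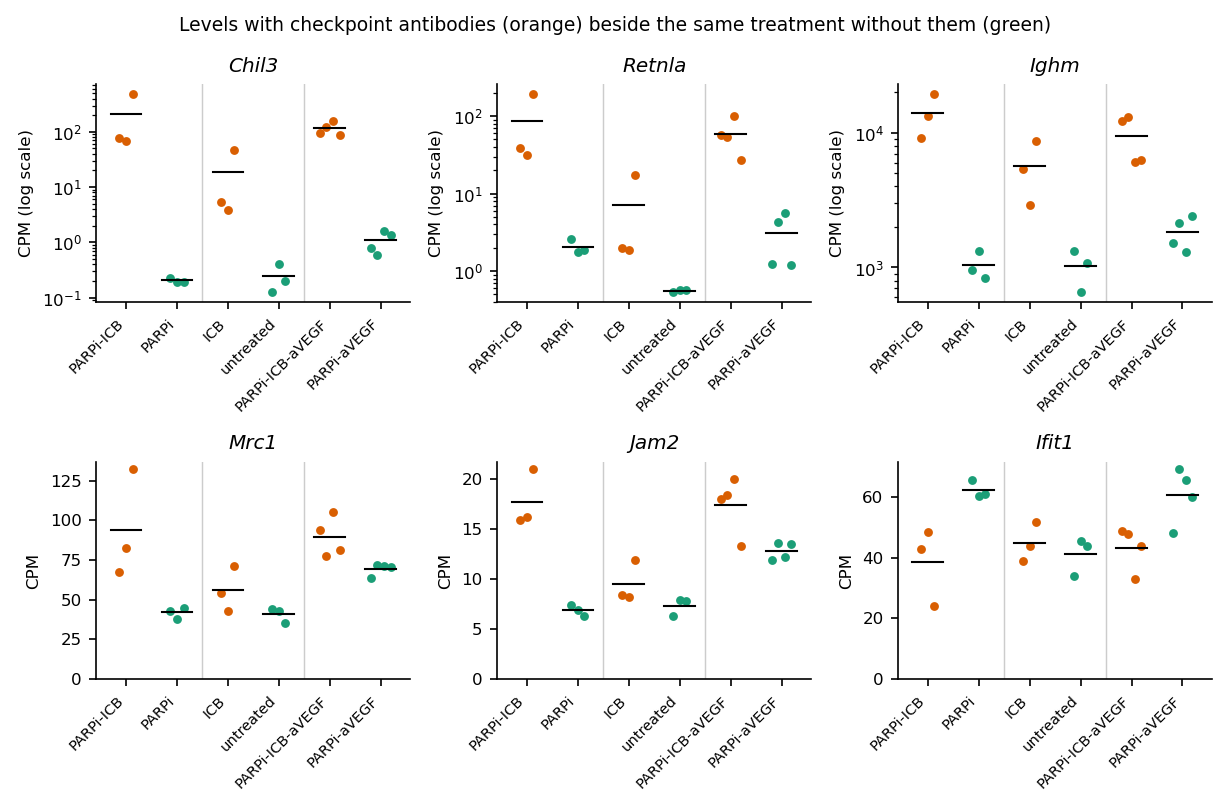
Each point is 1 library, black lines are group means, and each pair of groups sets the antibodies (orange) beside the same treatment without them (green); the upper row has log axes. Chil3 and Ighm are higher with the antibodies in all 3 pairs. For Ifit1, which was not called, the 3 PARPi-ICB libraries lie below the 3 PARPi libraries. PARPi-ICB and PARPi libraries did not overlap for 24.4% of all genes tested.

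Ifit2, Ddx60 and Tlr3 were named for a small p for the difference from the antibodies without olaparib, a test that called 0 genes. No theme can be drawn from them. Ifit2, an interferon-induced antiviral protein, had a log2 effect of -0.38 ± 0.16 with olaparib and 0.65 ± 0.16 without it, and the difference had an unadjusted p of 0.000273 (edgeR adjusted p 0.869). Ddx60, a helicase that aids RNA sensing, had effects of -0.58 ± 0.15 and 0.23 ± 0.15 (edgeR adjusted p of the difference 0.958), and Tlr3, a receptor for double-stranded RNA, -0.28 ± 0.09 and 0.20 ± 0.09 (0.958). In the other comparison the laminin chain Lama1 had an effect of 1.04 ± 0.19 with olaparib and -0.16 ± 0.16 with olaparib and anti-VEGFA, and Lox of 0.94 ± 0.17 and -0.15 ± 0.14, with unadjusted p of 0.000175 and 0.000108 for the difference and edgeR adjusted p of 0.460 and 0.460. The calls of Lama1 and Lox with olaparib were lost without PARPi-ICB replicate 3 (edgeR adjusted p 0.0725 and 0.101) and without PARPi replicate 2 or 3. Other genes named for a small p were Ndnf, Flnc, Trf, Nkain4 and Heph (a higher effect with olaparib than without it), Ky, Zmynd15 and Prg2 (a lower one), Dio3, Clmp, Svep1 and Serpina3n (higher than with anti-VEGFA), and Phf13, Crip3, Coro2b, Cyp2d22, Lars2 and Wt1os (lower). None of these differences passed after adjustment, and a p that misses the threshold does not show that the effects are alike.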

How the data were processed

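RNA was extracted from frozen tumour tissue and sequenced as stranded whole-transcriptome libraries, per the labels' protocols. The authors deposited raw read counts per Ensembl gene and a table of log2(RPKM + 1) values per gene symbol. STAR, HTSeq and genome build GRCm38 are named in the submitters' processing notes. Their versions and the strand setting are not given in the sources used here. That 1 was added before the logarithm was read from the deposited log2 values, which match the counts.

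The counts of all 20 libraries were fitted with edgeR 4.0.16 (R 4.3.3), with TMM scaling, a filter on low counts (filterByExpr, minimum count 10, minimum total 15), 1 coefficient per group and quasi-likelihood F tests. Standard errors were taken as the size of the log2 change over √F. DESeq2 1.42.0, and limma 3.58.1 on the log2 RPKM values, served as alternatives. The pipeline was tested on simulated data of 17871 genes with 200 changed: for PARPi-ICB against PARPi it called 81% of those changed 2-fold and 97% of those changed 4-fold, and 4.30% of the calls were false. The changed genes were drawn from those above a minimum mean CPM, and counts were drawn independently for each gene and library. These rates therefore do not cover genes of low count or shifts that many genes of 1 tumour share. Replicates of a group differed by far more than sampling noise, with chi-square per degree of freedom of 53.7 to 71.1 among the PARPi-ICB tumours and 28.5 to 37.2 among the PARPi tumours. Gene positions and names come from GENCODE M21 (55227 IDs matched).

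The members and the 41 gene lists were chosen with earlier results of these data known. Named genes are, where the 6 libraries average 1 CPM or more, the 10 called genes with the largest change and the 10 with the smallest p each way, up to 4 genes of each list with the smallest p, the drug targets and a few fixed genes, and the 6 with the smallest p each way for each test of a difference. Unnamed gene models and receptor segments were left out of it. Genes named outside this rule are marked as chosen after their values were seen. Some genes that the rule or a count includes are not reported here by name.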

Additional observations from a re-analysis of the deposited data

How the results depend on the processing

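Against 229 genes called (160 higher, 69 lower), the Wald test of DESeq2 called 812 (541 higher, 271 lower), a fit of the 6 libraries alone 118 (83 higher, 35 lower), limma on the deposited log2 RPKM 102 (67 higher, 35 lower) and limma with 0.1 added before the logarithm 132 (87 higher, 45 lower). With covariates added after the data were seen, the adipocyte score left 16 (12 higher, 4 lower) and a score of Rn7sk, Lars2 and Mir6236, RNAs that can vary with library quality, left 92 (74 higher, 18 lower). Leaving out 1 library gave 26 to 293 calls, 19 to 230 higher and 2 to 65 lower. DESeq2 size factors gave 221, no filter on low counts 307, a stricter filter 240, and leaving out 4 libraries of other groups with RNA of pancreatic acinar cells, chosen after the data were seen, 302. The labels do not say whether replicate numbers pair the tumours, and they were treated as unpaired. Deviations of PARPi-ICB and PARPi tumours with the same number correlated at -0.04, 0.07 and -0.03, and those with different numbers at -0.08 to 0.11. With 3 tumours a group these correlations cannot exclude a shared cage or day. A fit with the replicate number as a block called 277. All 229 calls kept their direction where they were measured. The cause of these shifts was not tested.

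Of the 520 list genes tested, 24 were called, against 107 with DESeq2, 3 with the adipocyte score, 12 with the library quality score, 45 with no filter, 38 without the 4 acinar libraries, 14 with limma on the deposited values and 4 to 45 on leaving out 1 library. The test of the difference from the antibodies without olaparib called 0 genes, against 11 with DESeq2, 1 without the 4 acinar libraries and 0 to 2 on leaving out 1 library. The difference from the antibodies with anti-VEGFA called 0, against 17 with DESeq2. Among the 2201 values of 130 of the genes named here under the alternatives, 1781 kept direction and side of the threshold, 335 were no longer called, 80 became called and 5 changed sign, none of them of a called gene. On leaving out 1 library the log2 change of Hspa1b ran between -0.28 and 4.57, that of Parp2 between -0.0643 and 0.00264, that of Trf between -0.0279 and 0.292 and that of Trp53 between -0.0401 and 0.0973. The change of Parp2 was 0.0406 with the adipocyte score. Genes of low count, such as Rnase2a and Aire, rest on few reads, and 3 tumours a group limit what small changes can be called.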

Other observations

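Among the genes called higher were 7 variable segments of lymphocyte receptors, 6 of immunoglobulins and 1 of the T cell receptor beta chain, named here after their values were seen. Igkv14-126, a kappa light chain segment, stood at 541, 3699 and 314 CPM in the PARPi-ICB tumours and 51.5, 39.8 and 27.4 CPM in the PARPi tumours. Ighv11-2, a heavy chain segment, stood at 141, 1242 and 96.9 CPM in the PARPi-ICB tumours and 12.7, 11.2 and 5.12 CPM in the PARPi tumours. Both were highest in PARPi-ICB replicate 2 and lay apart between the groups, with log2 changes of 5.26 ± 1.03 and 5.67 ± 1.14 (edgeR adjusted p 0.0201 and 0.0219). Without PARPi-ICB replicate 2 the changes were 3.44 and 3.62 (edgeR adjusted p 0.0465 and 0.0525). Both calls were lost without any 1 PARPi tumour, with edgeR adjusted p up to 0.116 for Igkv14-126 and 0.120 for Ighv11-2. The PARPi tumours were low for both segments. In untreated tumours Igkv14-126 stood at 303, 59.8 and 146 CPM and Ighv11-2 at 112, 13.4 and 38.4 CPM. Every untreated and every PARPi-aVEGF tumour was above every PARPi tumour for both. As background, the pairing of these heavy and light chain segments is known from IgM of peritoneal B-1a cells in mice. Ighv2-9-1 stood at 379.5, 2.56 and 5.52 CPM in the PARPi-ICB tumours and 0.0288, 0 and 0.0954 CPM in the PARPi tumours, so its level rests on PARPi-ICB replicate 1, without which its edgeR adjusted p was 0.0729; without PARPi replicates 1 to 3 it was 0.0972, 0.126 and 0.120. Ighv5-12, the 1 called gene whose groups overlap, stood at 115, 0.896 and 34 CPM in the PARPi-ICB tumours and 0.720, 0 and 1.78 CPM in the PARPi tumours, and it stayed called on leaving out PARPi-ICB replicate 2 and on leaving out none of the other 5 libraries (edgeR adjusted p 0.0931 to 0.161). Variable segments are alike in sequence, so counts may be shared among them.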
